A study of Bos grunniens x Bos taurus and Bos grunniens with 6 samples.

Results

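The genes described here encode the proteins of the cytosolic ribosome, together with the paralogs whose symbols add L, or L and a digit, to that of a parent gene. They were taken from the expression table by symbol, as RPL, RPS, RPLP, RPSA or FAU with their numbers and letters, while RPS27A was left out. The rule found 192 of 18918 rows, under 79 symbols, with 48 symbols on more than 1 row and 113 rows beyond the first of a symbol. Large subunit proteins made up 123 rows and small subunit proteins 69, FAU and RPSA being counted with the latter. The table annotated 182 of the 192 rows as a structural constituent of the ribosome.

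RNA-seq was performed on testis tissue of 3 cattle-yak (TES5, TES6 and TES7) and 3 yak (Yak8, Yak9 and Yak10), with 1 library for each animal. Cattle-yak were F1 males of a Jersey bull and a Gannan yak cow from Xiahe County, yak were Gannan males from Linxia County, and every animal was 4 years old. In the methods of the study, testes of cattle-yak came from castration and those of yak from euthanized animals, whereas the sample labels give castration for both. County and, by those methods, the way of collection coincided with the groups, so their part in any difference cannot be told apart from that of the cross. The FPKM values rested on 11834987, 11175100 and 11600013 fragments on genes in TES5, TES6 and TES7, and on 13136129, 13104964 and 12991641 in Yak8, Yak9 and Yak10. The comparison addresses how the testis of the sterile hybrid differs from that of yak, here in the genes for the machinery of protein synthesis.

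Ribosomal proteins are made in near equal numbers and assembled with ribosomal RNA in the nucleolus, and growing cells hold large amounts of their mRNAs. Male germ cells silence the X chromosome during meiosis, and autosomal copies such as RPL10L and RPL39L, expressed in testis, are known to stand in for X-linked parents. Ribosomal protein genes have also left many processed copies in mammalian genomes, which resemble the parent closely in sequence. Neither RPL10L nor RPL39L was analysed here under its own symbol. The most abundant row with the symbol RPL10 was described in the table as ribosomal protein L10 like, so symbol and description of this row disagree.

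Among the cattle-yak libraries TES7 stood apart in these genes. It held the highest value of its group in 135 of 166 ribosomal protein rows tested (81.3%), but in 27.2% of all 15042 genes tested. Its median offset from the other cattle-yak on the log2 (FPKM + 1) scale was 0.28 over the ribosomal protein rows and -0.03 over all genes. Counts of calls with FPKM as deposited are therefore also given without TES7.

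Ribosomal protein mRNAs took a larger share of the expression in cattle-yak testis than in yak testis. Their share of the summed FPKM was 7.36%, 7.93% and 9.04% in TES5, TES6 and TES7, against 4.28%, 4.62% and 4.51% in Yak8, Yak9 and Yak10. All cattle-yak libraries lay above all yak libraries, with means of 8.11% ± 0.851 for the 3 cattle-yak and 4.47% ± 0.173 for the 3 yak (mean ± SD). Large subunit proteins held 4.92% ± 0.534 for the 3 cattle-yak and 2.76% ± 0.0862 for the 3 yak (mean ± SD), and small subunit proteins 3.19% ± 0.318 for the 3 cattle-yak and 1.72% ± 0.0886 for the 3 yak (mean ± SD). Taking only the most abundant row of each symbol gave 7.41% ± 0.768 for the 3 cattle-yak and 4.26% ± 0.166 for the 3 yak (mean ± SD). Without TES7 the cattle-yak mean over all rows was 7.65%. A share is relative to all other transcripts of the library, and in whole testis fewer cells of a type and less RNA per cell cannot be told apart.

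**Figure D1:**
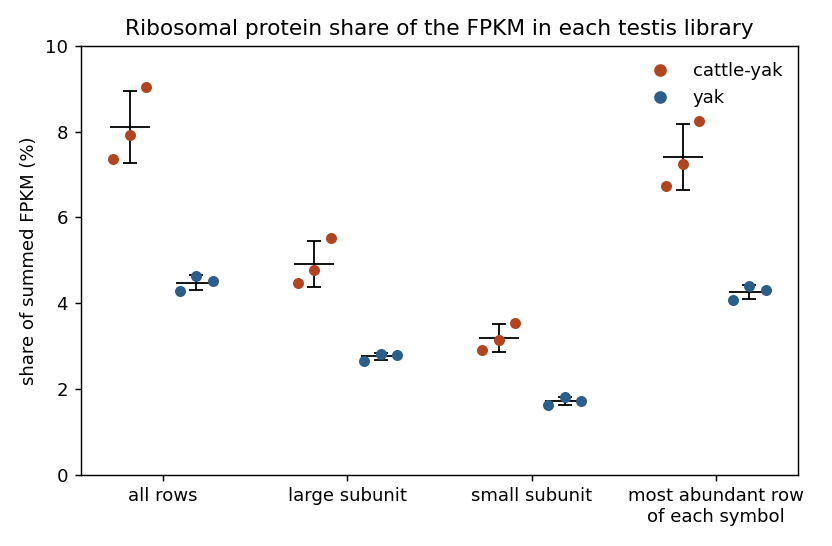
Share of the summed FPKM (%) on ribosomal protein rows in each animal, for all rows, large subunit, small subunit, and the most abundant row of each symbol. Points are animals, horizontal bars the group means and whiskers the SD (n = 3). In each class every cattle-yak lies above every yak.

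Of the 192 rows, 166 averaged 0.5 FPKM or more and were tested, and 26 were not. In limma on log2 (FPKM + 1), 68 ribosomal protein rows were called higher in cattle-yak, against 33.4% of all genes tested, and 3 were called lower, against 20.8%. A call needed a Benjamini-Hochberg adjusted p under 0.05 over all genes and a log2 (foldchange) beyond 1. The 68 rows were 41.0% of those tested and the 3 rows were 1.81%. The remaining 95 rows did not pass, and 152 of the 166 had a value above 0 (91.6%, against 63.1% of all genes). Without TES7, 58 rows were called higher (34.9%, against 33.4% of all genes) and 3 lower (1.81%, against 20.4%), so that the share called higher was near that of all genes, while the share called lower was again smaller. In 123 rows (74.1%) all cattle-yak values lay above all yak values, against 53.9% of all genes tested, and in 6 rows (3.61%) below, against 30.2%. Without TES7 these were 127 rows (76.5%), against 55.4%, and 8 rows (4.82%), against 30.9%. A low row can pass this minimum through its higher group alone, so these counts describe the rows tested and not all members.

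The median log2 (foldchange) of the 166 rows was 0.89, with quartiles at 0.41 and 1.34, and that of all genes was 0.51. Relative to all genes the ribosomal protein median was therefore higher by 0.38. Median-of-ratios scaling, which gives each library a size factor, moved the median of all genes to 0.01 and that of the ribosomal proteins to 0.35, a distance of 0.34. With this scaling 25 rows were called higher (15.1%, against 17.7% of all genes) and 4 lower (2.41%, against 27.8%), and 117 had a value above 0 (70.5%, against 50.3%). The share called higher was thus above that of all genes as deposited and below it with this scaling, and the share called lower was below it with both. All 25 were among the 68 rows above. When libraries were instead shifted to an equal level of 11 Sertoli cell markers, the log2 (foldchange) of every gene fell by the same 2.33. By construction this flips the direction of each row with a smaller rise, and it left 3 rows called higher (1.81%, against 0.179% of all genes) and 121 called lower (72.9%, against 76.9%), with medians of -1.43 for the ribosomal proteins and -1.81 for all genes. Directions below refer to FPKM as deposited, and with Sertoli-centred scaling each of the rises named for a most abundant row turns negative.

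Changes of the family were spread over a narrower range than those of all genes of its level. Among the 60 rows with a mean of at least 100 FPKM, log2 (foldchange) had an SD of 0.68 and a median of 0.99, while the 1164 genes of the table above this level had 2.62 and -0.04. The latter include spermatid markers such as TNP1, at -8.27. A narrow spread was not particular to the family. Quartiles were 0.21 and 1.18 in ribosome biogenesis genes and -0.12 and 0.68 in elongation and termination genes. They were -0.35 and 0.91 in translation initiation genes and -0.37 and 1.07 in mitochondrial ribosomal proteins, against 0.41 and 1.34 over the 166 rows. Large and small subunits gave similar medians, of 0.87 over 104 rows and 0.96 over 62. In the large subunit 42 rows were called higher (40.4%) and 1 lower (0.962%), and in the small subunit 26 (41.9%) and 2 (3.23%), against 33.4% higher and 20.8% lower over all genes. Without TES7 the large subunit had 35 higher (33.7%, near the 33.4% of all genes) and 1 lower, and the small subunit 23 (37.1%) and 2. The most abundant rows of the symbols had a median of 0.90 over 78 rows and the less abundant rows 0.88 over 88.

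**Figure D2:**
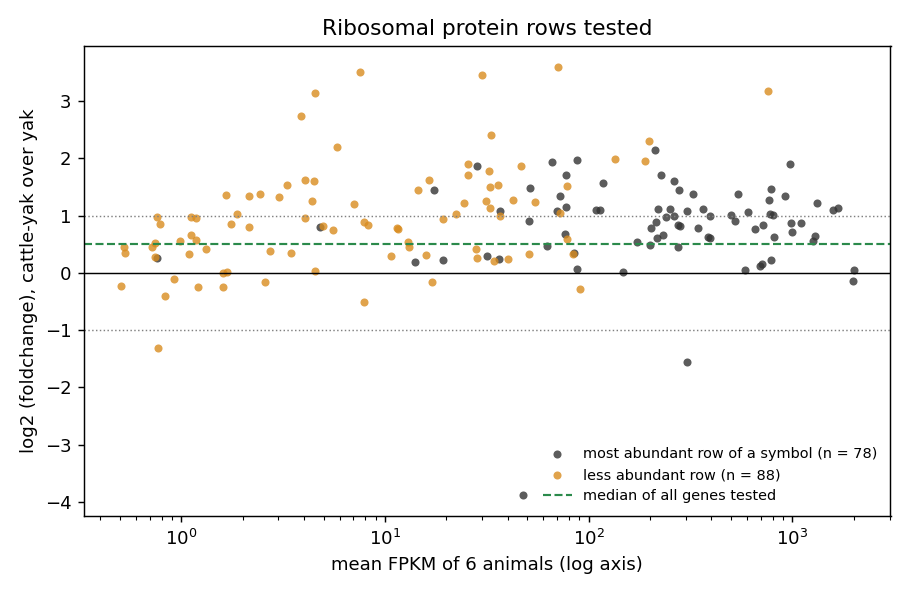
Log2 (foldchange) of cattle-yak over yak against the mean FPKM of 6 animals (log axis) for the 166 ribosomal protein rows tested, each point a row. The dashed line is the median of all genes tested (0.51) and dotted lines mark 1 and -1. Most rows lie above 0 with FPKM as deposited, which flips with Sertoli-centred scaling, and RPL39 and RPS4X lie far below the other most abundant rows.

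The 5 most abundant members belonged to both subunits and did not move alike. RPS24, a small subunit protein, had 1664, 1780.1 and 2114 FPKM in TES5, TES6 and TES7 and 763, 776 and 834 in Yak8, Yak9 and Yak10. RPS29, a zinc-binding protein of the small subunit, had 2041, 2085 and 2313 against 865, 1171 and 1001 FPKM in the same order. RPL21, of the large subunit, had 2052, 2151 and 2752 against 987, 1103 and 1041 FPKM. These genes were higher in every cattle-yak than in any yak, with log2 (foldchange) of 1.22 ± 0.12 (SE), 1.09 ± 0.13 (SE) and 1.14 ± 0.13 (SE), and limma with Benjamini-Hochberg adjustment gave an adjusted p of 2.23e-05, 8.77e-05 and 7.09e-05. With median-of-ratios scaling they were 0.60, 0.47 and 0.52 and no longer passed the fold threshold, and RPS29 did not pass it without Yak8 either, at 0.98. RPLP1, a protein of the stalk that recruits elongation factors, had 1815, 1968 and 2372 FPKM in cattle-yak and 1871, 1949 and 2053 in yak on its most abundant row. RPL35, which lies near the exit of the peptide tunnel, had 1785, 1759.6 and 2106 against 1898, 2071 and 2281 FPKM. For both genes the groups overlapped, and log2 (foldchange) was 0.06 ± 0.13 (SE) and -0.15 ± 0.12 (SE) (limma with Benjamini-Hochberg adjustment, adjusted p = 0.674 and 0.292).

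The largest rises among most abundant rows were in RPL10, RPL36A, RPL27A, RPSA and RPS4. The row with the symbol RPL10, whose protein is added late to the large subunit, had 283, 367 and 387 FPKM in TES5, TES6 and TES7 and 83.8, 71.3 and 74.3 in Yak8, Yak9 and Yak10. RPL36A, X-linked in mammals, had 129, 139 and 154 FPKM in cattle-yak and 40.1, 35.3 and 30.6 in yak. RPSA, a small subunit protein also known as a laminin receptor, had 1300.0, 1491 and 1814 against 389.8, 388 and 439 FPKM. None of these values overlapped between groups, and log2 (foldchange) was 2.15 ± 0.13 (SE) in RPL10, 1.97 ± 0.12 (SE) in RPL36A and 1.91 ± 0.14 (SE) in RPSA, with limma and Benjamini-Hochberg adjusted p of 2.13e-06, 2.15e-06 and 4.30e-06. RPL27A and RPS4 rose by 1.94 ± 0.20 (SE) and 1.87 ± 0.15 (SE) on the log2 scale. With median-of-ratios scaling these 5 rows ranged from 1.28 to 1.54 and were still called.

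At the other end were RPL39 and RPS4X, followed by RPL35, FAU and RPL29. FAU, which encodes a ubiquitin-like protein fused to a small subunit protein, had 138, 136 and 173 FPKM in cattle-yak and 132, 142 and 168 in yak on its most abundant row. RPL29 had 576, 578 and 623 against 557, 573 and 588 FPKM. Values of both rows overlapped between groups, with log2 (foldchange) of 0.02 ± 0.13 (SE) and 0.05 ± 0.09 (SE), which lie below the median of all genes. A second row of FAU (ENSBGRG00000019078), chosen after its values were seen, had 80.6, 75.8 and 89.9 against 95.2, 103 and 99.0 FPKM. It was lower in every cattle-yak but not called, at -0.27 ± 0.10 (SE) (limma with Benjamini-Hochberg adjustment, adjusted p = 0.0289). RPS18 and RPS20, chosen after their values were seen, had the largest SE among the most abundant rows apart from RPL39. RPS18 had 38.8, 9.55 and 56.3 FPKM in cattle-yak and 33.8, 43.9 and 7.38 in yak, and RPS20 had 30.0, 31.1 and 80.5 and 4.86, 37.1 and 37.0. Neither gene was called, with SE of 0.75 and 0.72.

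Rows that carry 1 symbol did not always move together. Of 45 symbols with at least 2 rows tested, 13 had rows on both sides of 0, and in 3 of these, RPS4X, RPL39 and RPS25, a row called lower stood beside one called higher, though the lowered row of RPS25 passed the minimum through yak alone and nothing is read from it. Such rows may share near identical sequence, and reads of cattle alleles in cattle-yak were mapped to the yak genome, so the split of fragments between rows is uncertain and its part in the differences was not tested. Values of the rows beside the most abundant ones of RPS4X, RPL39 and RPLP1 were chosen after they were seen.

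RPS4X encodes a small subunit protein and is X-linked in mammals. Its most abundant row (ENSBGRG00000011214) had 181, 137 and 142 FPKM in TES5, TES6 and TES7 and 458, 442 and 455 in Yak8, Yak9 and Yak10. The next row (ENSBGRG00000025116), the only one described in the table as ribosomal protein S4 X-linked, had 196, 204 and 251 FPKM in cattle-yak and 61.4, 47.3 and 52.6 in yak. The first row was lower in every cattle-yak and the second higher, with log2 (foldchange) of -1.56 ± 0.12 (SE) and 1.99 ± 0.13 (SE) (limma with Benjamini-Hochberg adjustment, adjusted p = 6.00e-06 and 3.12e-06). The gene models differ in length, with 792 and 1961 bases. Over all rows of RPS4X the sum was 387, 351 and 406 FPKM in cattle-yak and 522, 491 and 510.1 in yak, a log2 difference of -0.41, much smaller than that of the first row.

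RPL39, the short protein lining the peptide exit tunnel, stood on 8 rows, the most of any symbol. Its most abundant row (ENSBGRG00000005885, 156 bases) had 14.6, 0 and 12.2 FPKM in cattle-yak, which rest on 27, 0 and 22 fragments, and 72.2, 87.1 and 100.2 in yak, on 148, 178 and 203 fragments. Rows ENSBGRG00000021369 and ENSBGRG00000019979 had 37.9, 64.2 and 68.0 and 37.5, 35.6 and 49.9 FPKM in cattle-yak, against 7.32, 13.7 and 8.39 and 9.99, 8.25 and 12.5 in yak. The first row was thus low in cattle-yak and high in yak, and the others the reverse, without overlap. Log2 (foldchange) was -3.88 ± 0.92 (SE) for the first row and 2.42 ± 0.27 (SE) and 1.90 ± 0.18 (SE) for the others, with limma and Benjamini-Hochberg adjusted p of 0.00423, 5.67e-05 and 2.07e-05. The value of the first row depends on the 0 in TES6, being -2.60 without TES6 and -4.58 without TES5, and its call was lost with a pseudocount of 0.01. Summed over all 8 rows, RPL39 overlapped between groups, with 98.7, 104 and 139 FPKM in cattle-yak and 92.9, 111 and 124 in yak and a log2 difference of 0.0569.

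RPLP1 stood on 3 rows, each of 345 bases. While its first row overlapped between groups, the second (ENSBGRG00000013984) had 1251, 1306 and 1547 FPKM in cattle-yak and 139.9, 145 and 168 in yak. The third (ENSBGRG00000024807) had 120.3, 116 and 159 against 10.2, 8.40 and 11.4 FPKM. Both were far higher in every cattle-yak than in any yak, with log2 (foldchange) of 3.17 ± 0.12 (SE) and 3.59 ± 0.16 (SE) (limma with Benjamini-Hochberg adjustment, adjusted p = 2.29e-07 and 4.13e-07), and remained positive with Sertoli-centred scaling. The 3 rows summed to 3185, 3390.0 and 4078 FPKM in cattle-yak and 2021, 2103 and 2232 in yak, a log2 difference of 0.74, between the value of the first row and those of the others.

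**Figure D3:**
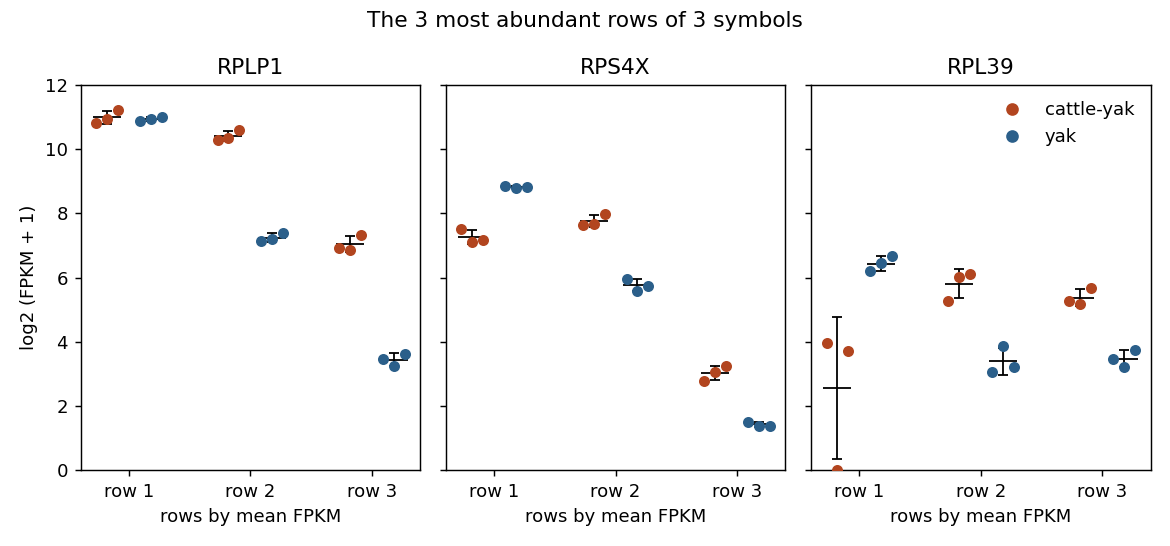
Log2 (FPKM + 1) in each animal for the 3 most abundant rows of RPLP1, RPS4X and RPL39, ordered by mean FPKM. Points are animals, horizontal bars the group means and whiskers the SD (n = 3). The most abundant rows of RPS4X and RPL39 are lower in cattle-yak and the other rows shown are higher or, in the first row of RPLP1, overlap.

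Among the less abundant rows, a copy of RPS27 (ENSBGRG00000018988) and 1 of RPL21 (ENSBGRG00000020944) were, with the third row of RPLP1, the most raised on the log2 (FPKM + 1) scale. The RPL21 copy had 47.1, 52.4 and 67.9 FPKM in cattle-yak and 3.91, 3.63 and 4.83 in yak, with a log2 (foldchange) of 3.46 ± 0.16 (SE). The RPS27 copy had 12.6, 15.1 and 16.2 against 0.597, 0 and 0.604 FPKM, the latter from 2, 0 and 2 fragments, so its fold depends on the pseudocount. This copy passed the minimum of 0.5 FPKM through cattle-yak alone, with a yak mean of 0.40, and nothing is read from its rise or rank. By the ratio of group means the order differs, and copies of RPS23 (ENSBGRG00000021911) and RPL6 (ENSBGRG00000014381), chosen after their values were seen, stand above those of RPL21 and RPLP1. Both also passed the minimum through cattle-yak alone, with yak means of 0.12 and 0.27 FPKM, so nothing is read from their ratios or ranks. The RPS23 copy had 9.84, 7.10 and 9.76 FPKM in cattle-yak and 0, 0 and 0.374 in yak, the latter from 0, 0 and 3 fragments, and the RPL6 copy 6.75, 6.94 and 8.68 and 0.352, 0.265 and 0.178, from 4, 3 and 2 fragments in yak. The smallest values included those of copies of RPS25 and RPS4. The RPS25 copy (ENSBGRG00000025725) was listed at 0 in every cattle-yak and rested on 11, 7 and 4 fragments in yak. The RPS4 copy had 0.859, 0.546 and 0.350 FPKM against 1.24, 1.09 and 0.939 and was not called.

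Whether paralogs and parents shift against each other was asked for the 5 pairs found, as the log2 ratio of paralog to parent in each animal. Both genes are read in the same library, so this ratio does not depend on scaling apart from the pseudocount of 1. For 3 animals against 3 the exact permutation test (two-sided) cannot give a p below 0.1. The ratio of RPL7L1 to RPL7 was higher in cattle-yak, those of RPL22L1 to RPL22 and RPS27L to RPS27 were lower, and RPL3L and RPL26L1 showed smaller differences. With median-of-ratios scaling RPL7L1, RPL22 and RPS27L kept positive changes of 0.73, 0.88 and 0.48 but not their calls.

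RPL7L1, a nucleolar relative of the large subunit protein RPL7, had 112, 84.8 and 116 FPKM in TES5, TES6 and TES7 and 32.7, 44.3 and 44.8 in Yak8, Yak9 and Yak10. RPL7 had 685, 712 and 774 against 677, 656 and 668 FPKM. The log2 ratio was -2.61, -3.05 and -2.73 in cattle-yak and -4.33, -3.86 and -3.87 in yak. Ratios did not overlap and differed by 1.22 (exact permutation test, p = 0.1, the smallest possible). The paralog alone rose by 1.34 ± 0.16 (SE) on the log2 scale (limma with Benjamini-Hochberg adjustment, adjusted p = 9.42e-05), and RPL7 did not pass, with 0.12 ± 0.09 (SE).

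RPL22L1 and its parent RPL22 are known as RNA-binding proteins of the large subunit. RPL22L1 had 40.1, 38.6 and 38.8 FPKM in cattle-yak and 35.7, 32.5 and 31.1 in yak, and RPL22 had 27.5, 21.2 and 29.4 and 8.79, 8.27 and 9.26. In FPKM the paralog was above the parent in all 6 animals, an order that depends on the gene models, of 369 and 1680 bases. In fragments the parent was above the paralog in all 6, with 182 to 572 against 149 to 175. The parent rose by 1.46 ± 0.14 (SE) on the log2 scale (limma with Benjamini-Hochberg adjustment, adjusted p = 2.54e-05). The log2 ratio was 0.53, 0.83 and 0.39 in cattle-yak and 1.91, 1.85 and 1.65 in yak, without overlap. The difference was -1.22 (exact permutation test, p = 0.1).

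RPS27L, a p53-responsive relative of RPS27, had 95.9, 86.4 and 105 FPKM in cattle-yak and 40.5, 44.4 and 48.5 in yak, and RPS27 had 256, 361 and 432 and 101, 93.4 and 119. Both were higher in every cattle-yak, with log2 (foldchange) of 1.09 ± 0.11 (SE) and 1.71 ± 0.19 (SE) (limma with Benjamini-Hochberg adjustment, adjusted p = 3.22e-05 and 5.08e-05). The log2 ratio of -1.41, -2.05 and -2.04 in cattle-yak lay below that of -1.30, -1.05 and -1.28 in yak, a difference of -0.62 (exact permutation test, p = 0.1).

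RPL3L, known from striated muscle, was low, with 0.715, 0.970 and 1.05 FPKM in cattle-yak and 0.463, 0.545 and 0.794 in yak, while RPL3 had 487, 433 and 506 and 311, 334 and 285. The difference in log2 ratio was -0.36 (exact permutation test, p = 0.1) but -0.00623 with a pseudocount of 0.01 and -0.22 without Yak10. As a percentage of RPL3, without a pseudocount, RPL3L overlapped between groups, with 0.147%, 0.224% and 0.207% in cattle-yak and 0.149%, 0.163% and 0.279% in yak. RPL26L1 had 13.7, 13.7 and 17.9 FPKM in cattle-yak and 12.6, 11.2 and 15.4 in yak, and RPL26 had 83.4, 86.9 and 98.5 and 85.4, 85.4 and 83.8. Their ratios overlapped and differed by 0.12 (exact permutation test, p = 0.5), with the sign reversed when all rows of RPL26 were summed. The difference was 0.0159 without Yak9, 0.0655 without TES7 and 0.24 without Yak10.

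**Figure D4:**
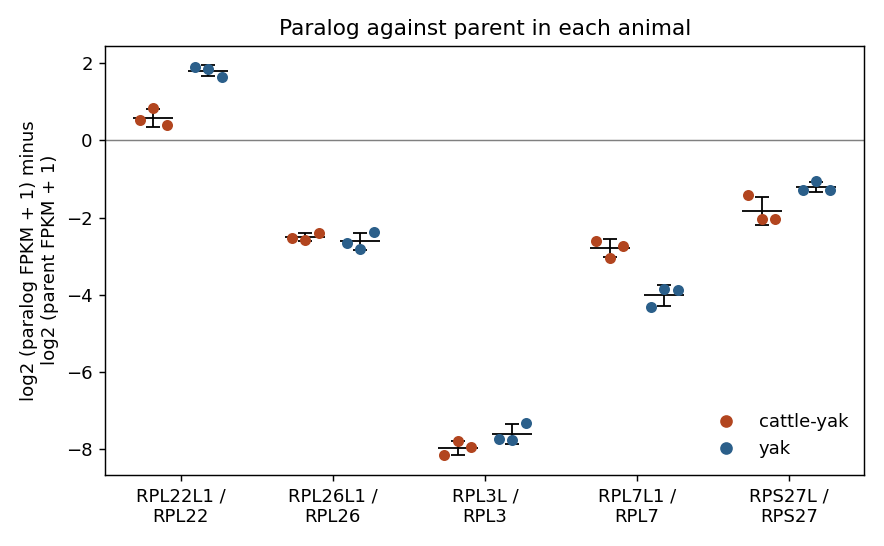
Log2 (paralog FPKM + 1) minus log2 (parent FPKM + 1) in each animal for 5 pairs. Points are animals, horizontal bars the group means and whiskers the SD (n = 3). Groups overlap for RPL26L1, RPL7L1 is higher and RPL22L1 and RPS27L are lower in cattle-yak. The groups of RPL3L are separate on this scale but overlap without the pseudocount.

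Other genes of protein synthesis did not follow the ribosomal proteins in every list. Over all genes 33.4% were called higher and 20.8% lower, and each list is given beside these shares. Of 50 genes of ribosome biogenesis tested, 18 were called higher (36.0%, near the share of all genes) and 3 lower (6%), with a median log2 (foldchange) of 0.78, against 0.51 over all genes. With median-of-ratios scaling only BUD23, UBTF, DKC1 and GNL3L had a value above 1, and SBDS, RIOK3, POLR1D and GNL2 lay below -1. The median was then 0.21, against 0.01 over all genes, of which 17.7% were called higher. BUD23, a methyltransferase of small subunit RNA, had 1457, 1731 and 1623 FPKM in cattle-yak and 314, 334 and 374 in yak. SBDS, which helps release a factor from new large subunits, had 80.6, 81.5 and 87.0 against 183, 193 and 188 FPKM. These were the largest and the smallest change called in the list, 2.23 ± 0.11 (SE) and -1.17 ± 0.08 (SE), both without overlap. Of 7 dedicated chaperones of ribosomal proteins, 2 were called higher (28.6%), HEATR3 (1.87 ± 0.16 (SE)) and TSR2 (1.69 ± 0.12 (SE)), and 0 lower in limma or voom, with a median of 0.86. The 1 lower at an unadjusted p under 0.05, PDCD2, named after its value was seen, also passed the adjusted p, at 0.00966, and missed the fold threshold, with -0.44 ± 0.12 (SE). Under median-of-ratios scaling PDCD2 had -1.03, and HEATR3 and TSR2 stayed above 1. Of 15 regulators, 8 were called higher (53.3%) and 1 lower (6.67%), with a median of 1.02. The 8 were MYCN, EIF4EBP1, EIF4EBP2, RHEB, MYC, EEF2K, RPTOR and MAX. The list was not split into genes that raise and genes that restrain protein synthesis, so its count and median give no direction for it. Under median-of-ratios scaling MAX, EEF2K and RPTOR had 0.43, 0.75 and 0.54, below the fold threshold, LARP1 had -1.32, and the median was 0.43. The transcription factor MYCN had 22.5, 23.0 and 17.1 FPKM against 3.93, 2.52 and 2.24, and the kinase MTOR 19.8, 15.9 and 15.0 against 45.7, 37.8 and 33.7, so that MYCN was high in cattle-yak and MTOR in yak. Without TES7, 19 biogenesis genes were called higher and 3 lower, 3 chaperones higher, and 8 regulators higher and 1 lower.

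Of 41 translation initiation genes, 10 were called higher (24.4%) and 3 lower (7.32%), both below the shares of all genes, with a median of 0.17. With median-of-ratios scaling the balance turned. Only PABPC4, EIF2S3 and EIF2B1 then had a value above 1, more genes lay below -1, and the median was -0.45, against 0.01 over all genes. EIF2S3, a subunit of the factor that brings initiator tRNA, had 63.0, 79.6 and 98.3 FPKM in cattle-yak and 17.4, 18.6 and 18.8 in yak. PABPC1, the poly(A)-binding protein, had 328, 286 and 277 against 964, 1052 and 911 FPKM. The groups were separate for both genes, in opposite directions. Of 9 elongation and termination genes, 0 were called in limma with FPKM as deposited. At an unadjusted p under 0.05, 6 were higher and 2 lower, and all 8 of these also passed the adjusted p and missed the fold threshold, EEF1G, named after its value was seen, most narrowly, at -0.999. In voom 0 were called higher and 1 lower, and the limma median was 0.53. Median-of-ratios scaling brought EEF1G to -1.62 and EEF1D, also named after its value was seen, to -1.39, both beyond the fold threshold. No gene of this list then lay above 1, and the median was -0.08. Of 7 ribosome-associated or ubiquitin-fused genes, 2 were called higher (28.6%) and 0 lower. The median was 0.14, below the 0.51 of all genes, and 3 of the 7 had a value below 0. TPT1, abundant in growing cells, had 1359, 1611 and 2011 FPKM against 541, 479 and 504, and RPS27A, a ubiquitin fusion, 787, 837 and 1058 against 306, 295 and 326, of which RPS27A lost its call with median-of-ratios scaling, at 0.90. BTF3 had -1.08 with that scaling, and the median of these 7 genes was -0.48. Of 74 mitochondrial ribosomal proteins, 20 were called higher (27.0%) and 7 lower (9.46%), with a median of 0.28, below that of all genes, and from MRPL35 at -1.74 to MRPL36 at 2.30. Their median was -0.30 with median-of-ratios scaling, where 28 genes had a value above 0, against 47 as deposited. Without TES7, 9 initiation genes were called higher and 2 lower, 1 elongation gene lower, 2 ribosome-associated genes higher, and 19 mitochondrial ribosomal proteins higher and 8 lower.

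Markers of testis cell types moved with the groups at the same time. All 6 elongating spermatid markers and all 5 round spermatid markers measured were called lower in cattle-yak. The elongating spermatid markers, led by TNP1, summed to 85.9, 34.1 and 18.3 FPKM in TES5, TES6 and TES7 and 10511, 9060.2 and 11018 in Yak8, Yak9 and Yak10. The round spermatid markers, led by CREM, summed to 48.7, 27.6 and 11.0 against 778, 746 and 809 FPKM. Spermatid markers were thus low in every cattle-yak and abundant in every yak, though no defining gene was at 0 in all 3 cattle-yak. Spermatocyte markers, led by STAG3, had 1 of 8 called higher and 1 lower, and summed to 393, 253 and 351 against 481, 469 and 477 FPKM. With median-of-ratios scaling none had a value above 1, and the raised one, SYCP3, had 0.49. STAG3, PIWIL1 and SYCP2 then had -1.53, -3.91 and -1.24, and the median was -0.70. Of 8 spermatogonia markers, led by UCHL1, 7 were called higher, with sums of 347, 403 and 409.7 against 86.3, 83.1 and 101 FPKM. Of those called, STRA8 alone fell below 1 with median-of-ratios scaling, at 0.99.

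Somatic markers were higher in cattle-yak for most lists. All 11 Sertoli cell markers measured, led by FATE1, were called higher, with sums of 2236, 2531 and 2668 FPKM for TES5, TES6 and TES7 and 547, 481 and 556 for Yak8, Yak9 and Yak10. All 6 Leydig cell markers, led by INSL3, were called higher, with sums of 12423, 11846 and 10434 against 4864, 3339.8 and 3526 FPKM. All 7 myoid markers, led by ACTA2, were called higher, with sums of 611, 818 and 622 against 162, 131 and 136 FPKM. These sums did not overlap between groups. With median-of-ratios scaling AMH, INSL3 and TPM2 had 0.63, 0.94 and 0.50, below the fold threshold, and the other markers of these lists stayed above 1. Endothelial markers, led by VWF, had 4 of 7 called higher and 1 lower, with sums of 49.7, 55.8 and 34.4 against 34.6, 29.7 and 34.4 FPKM. None of them had a value above 1 with median-of-ratios scaling, where KDR, CDH5, TIE1 and EMCN ranged from 0.65 to 0.85 and VWF had -2.38. Macrophage markers, led by C1QB, had 4 of 7 higher and 2 lower, with sums of 120.1, 161 and 168 against 131, 141 and 109 FPKM. Only C1QA and C1QB stayed above 1 with median-of-ratios scaling, and AIF1 and CD14 stayed below -1. The 3 red blood cell genes measured were too low for the test, with HBA the most abundant and sums of at most 0.715 FPKM. ALAS2 was listed at 0 in every cattle-yak and also in Yak8 and Yak10, with 0.0414 in Yak9. Without TES7 the raised spermatocyte marker lost its call, 5 macrophage markers were called higher, and the other marker counts were the same. Whether these marker changes reflect cell numbers or RNA per cell, and their part in the ribosomal protein values, was not tested.

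**Figure D5:**
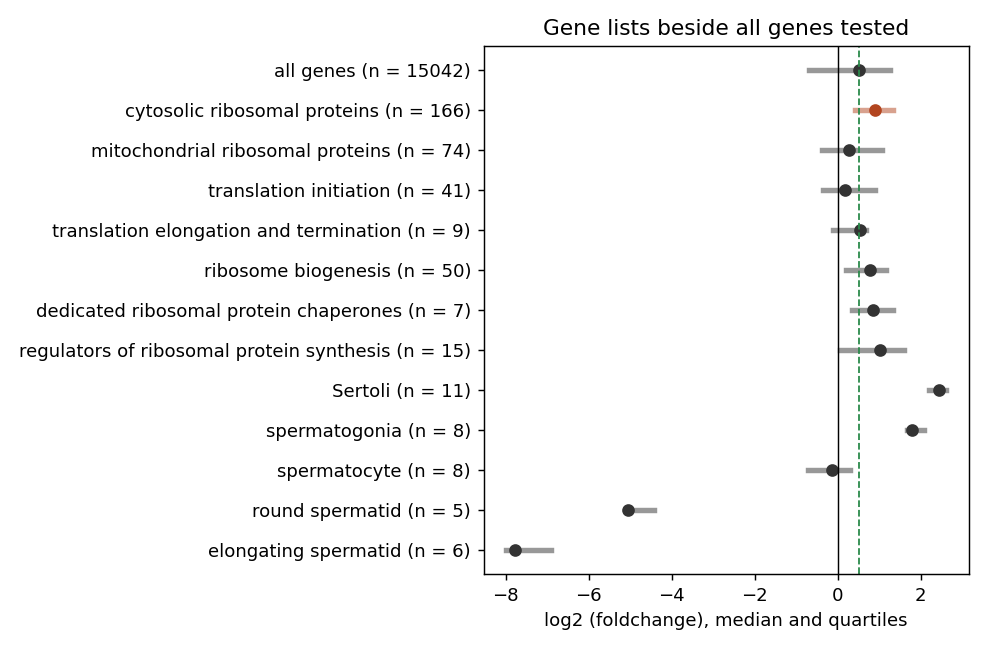
Median (point) and quartiles (bar) of log2 (foldchange) of cattle-yak over yak for ribosomal proteins, other gene lists and all genes tested, with n the number of genes or rows tested. The dashed line is the median of all genes (0.51). The ribosomal protein median of 0.89 lies above it with FPKM as deposited, where Sertoli-centred scaling turns both negative, and spermatid markers lie far below.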

How the data were processed

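FPKM of testis libraries from 3 cattle-yak and 3 yak were analysed as the authors deposited them, in 1 table with gene symbols. The authors trimmed reads with Trimmomatic, mapped both groups with HISAT2 to the yak genome LU_Bosgru_v3.0, calculated FPKM with Cufflinks, and counted reads with HTSeq-count, as their methods state, while tool versions are not given in the sources used here. Values of a gene stood in whole-number ratios between libraries, and from these the fragments and gene length were recovered for 17973 rows, with every count within 3.8e-05 of a whole number. The values are thus whole fragments over length and depth, and the settings for fragments shared by near identical rows are not given in the sources used here. Genes with a mean of at least 0.5 FPKM were tested with limma 3.58.1 under R 4.3.3 on the log2 (FPKM + 1) scale (variance trend, two-sided, Benjamini-Hochberg over all genes), a scale that understates changes of low genes. Paralog ratios were compared with exact permutation tests over 20 assignments in scipy 1.17.1, and matplotlib 3.10.9 made the figures. The limma step was tested on simulated data. Members and lists were chosen with earlier results of these data known. Named genes were the L paralogs and their parents, the 5 most abundant members, the 5 largest and 5 smallest changes among most abundant rows, the 3 largest and 3 smallest among other rows, the rows with 4 symbols that are X-linked in mammals (the RPL10 row being described as L10 like), and the called gene with the largest and the smallest change of each pathway list. Of these, 1 gene is not reported here, though it stays in the counts. Other pseudocounts, filters, scalings and priors, no fold threshold, summed rows and omission of each animal were tried. Sequences and chromosome positions were not used here.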

Additional observations from a re-analysis of the deposited data

How the results depend on the processing

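With pseudocounts of 0.1 and 0.01, no filter, a minimum of 5 FPKM, TPM scaling, another limma prior, or voom in limma on the recovered fragments, which was chosen after seeing the data, 59 to 78 ribosomal protein rows were called higher (35.4% to 48.0%, all genes 26.5% to 39.7%) and 2 or 3 lower (at most 1.81%, all genes 16.6% to 22.7%). Leaving out each animal in turn gave 58 to 75 rows higher (34.9% to 45.2%, all genes 32.6% to 34.1%) and 3 lower (1.81%, all genes 20.4% to 21.2%), a median of 0.76 to 0.96, and a difference in share of 3.17 to 4.01 percentage points, against 3.64 with all animals and 3.15 with 1 row per symbol. Median-of-ratios scaling gave 25 rows higher (15.1%, all genes 17.7%) and a median of 0.35, Sertoli-centred scaling 3 higher (all genes 0.179%), 121 lower (all genes 76.9%) and a median of -1.43, and no fold threshold 119 higher (71.7%, all genes 52.6%) and 5 lower (3.01%, all genes 29.2%). Dropping the threshold admits smaller changes, and the scalings lower the log2 (foldchange) of every gene by construction, Sertoli-centred by 2.33 and median-of-ratios by 0.11 to 0.62. The log2 ratio of RPL26L1 to RPL26 turned to -0.0132 with summed rows, and the other pairs kept their direction under the settings run.

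Of 42 named genes tested, 9 kept direction and call under every alternative run. Median-of-ratios scaling turned the log2 (foldchange) of 9 genes negative, namely FAU -0.60, RPL22L1 -0.36, RPL26 -0.54, RPL26L1 -0.39, RPL29 -0.57, RPL3 -0.00162, RPL3L -0.00448, RPL7 -0.50, RPLP1 -0.56. Sertoli-centred scaling turned 28 negative, namely BUD23 -0.0934, EIF2S3 -0.27, FAU -2.31, HEATR3 -0.45, MRPL36 -0.0288, RPL10 -0.17, RPL21 -1.19, RPL22 -0.87, RPL22L1 -2.09, RPL26 -2.25, RPL26L1 -2.13, RPL27A -0.39, RPL29 -2.28, RPL3 -1.71, RPL36A -0.36, RPL3L -2.07, RPL7 -2.21, RPL7L1 -0.99, RPLP1 -2.27, RPS24 -1.11, RPS27 -0.62, RPS27A -0.81, RPS27L -1.24, RPS29 -1.23, RPS4 -0.46, RPSA -0.42, TPT1 -0.64, TSR2 -0.63. Without single animals FAU ranged from -0.0916 to 0.11 and the first row of RPLP1 from -0.0500 to 0.14. For these 2 and for RPL26L1 the cause was not tested, whereas the negative values after scaling follow from the lowering given above. No paired analysis was possible because the groups hold different animals, which the labels do not match to each other. With 3 animals a group, exact tests cannot pass 0.05, and rows with few fragments give uncertain folds.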
